A study of Mus musculus with 40 samples.

Results

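The 4 H3K4me3 peak lists of brainstem oligodendrocyte precursor cell (OPC) cultures, K27M 59, K27M 61, control 59 and control 61, were compared to find the autosomal promoters and distal sites whose peaks appeared, disappeared or changed in length with H3.3 K27M. They were chosen by their tissue, mark and genotype labels, and they are 4 of 20 libraries with peak lists among the 40 samples of the series. K27M cultures came from litters of AMGFAP-Cre;K27M mice (so spelled in the labels, hGFAP-Cre in the study's methods), in which Cre acting in neural stem and progenitor cells removes a stop cassette, so that H3.3 K27M is expressed from the endogenous H3-3a locus. Controls were littermates, which the methods describe as lacking Cre, with the stop cassette silencing an H3-3a allele. The genotype of the control pups in these cultures is not stated beyond that. Brainstems of both sexes were pooled by genotype at postnatal day 5 to 7, OPCs were immunopanned on PDGFRα after other cells were depleted on a lectin-coated plate, and all cultures were kept in proliferation medium with no differentiation (day 0). Each culture is therefore a pool of mice, and the K27M and control cultures with the same number were processed as a matched pair. The brainstem H3K27me3 lists of the same 4 cultures and the 6 H3K4me3 lists of dorsal telencephalon cultures (labelled cortex, 3 pairs) served as readouts that the choice of genes did not use.

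H3K4me3 is laid down around active and poised transcription start sites by SET1 and MLL complexes, which are drawn to unmethylated CpG-rich DNA. A broad H3K4me3 domain is typical of genes that define a cell's identity, while many developmental regulators that are silent in a lineage carry a weaker H3K4me3 peak inside a domain of H3K27me3, the Polycomb mark, a state called bivalent. H3.3 K27M inhibits PRC2, the enzyme complex that writes H3K27me3.

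The lists held 28508 and 20279 autosomal peaks in K27M 59 and 61, against 24422 and 23904 in control 59 and 61, and covered 47.1, 30.3, 37.5 and 37.0 Mb of the autosomes, respectively. Total coverage went opposite ways in the 2 pairs. The log2 ratio of K27M over control was 0.33 in culture 59 and −0.29 in culture 61, a mean of 0.02 ± 0.44 (SD, n = 2 pairs), and an exact two-sided sign-flip permutation test gave p = 1.0, where the smallest p that 2 pairs allow is 0.5. The library with more sequencing reads was K27M in culture 59 and control in culture 61, the same orders as for coverage, and the part of read depth in these totals was not tested. No test in this design can pass a threshold, so a gene was called only where both pairs went the same way, and calls are descriptions of these 4 libraries. All 8 OPC markers examined, among them Pdgfra, Cspg4, Olig2 and Sox10, had a promoter peak in all 4 libraries. Of 10 microglial markers, 9 had none in any library, and the remaining one was marked in 3 libraries. Peaks in all 4 libraries were also seen at 11 of 12 neuron, 6 of 10 astrocyte, 6 of 12 mature oligodendrocyte and 2 of 8 endothelial markers. Such a peak alone thus does not separate OPCs from other cells.

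A gene was called gained when a peak overlapped its promoter window (2000 bp upstream to 1000 bp downstream of any annotated start) in both K27M libraries and in neither control, and lost in the reverse case. Among 20807 autosomal protein-coding genes, 31 were gained (0.149%) and 31 were lost (0.149%). Of the 12808 genes with a peak in all 4 libraries, 15 were widened (0.117%) and 37 were narrowed (0.289%), meaning that the summed length of their promoter peaks differed at least 1.5-fold in the same direction in both pairs. Cdon was the widened gene nearest the threshold, at 1.5-fold in its lesser pair, and Tcf24 lay just outside at 1.495-fold. Pgbd5 was the last narrowed gene, at 1.5-fold, and Dmtn lay just outside at 1.497-fold. Some other combinations of libraries were more frequent than these calls. Peaks at 70 genes were seen in K27M 59 and control 61 only, the 2 libraries with more reads, and at 110 genes in both libraries of culture 59 only, against 3 genes in K27M 61 and control 59 only and 0 genes in both libraries of culture 61 only. Across the genes with a peak in all 4 libraries the median log2 length ratio was 0.19 in culture 59 and −0.17 in culture 61, and centring each pair on its median gave 20 widened and 49 narrowed genes.

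**Figure D1:**
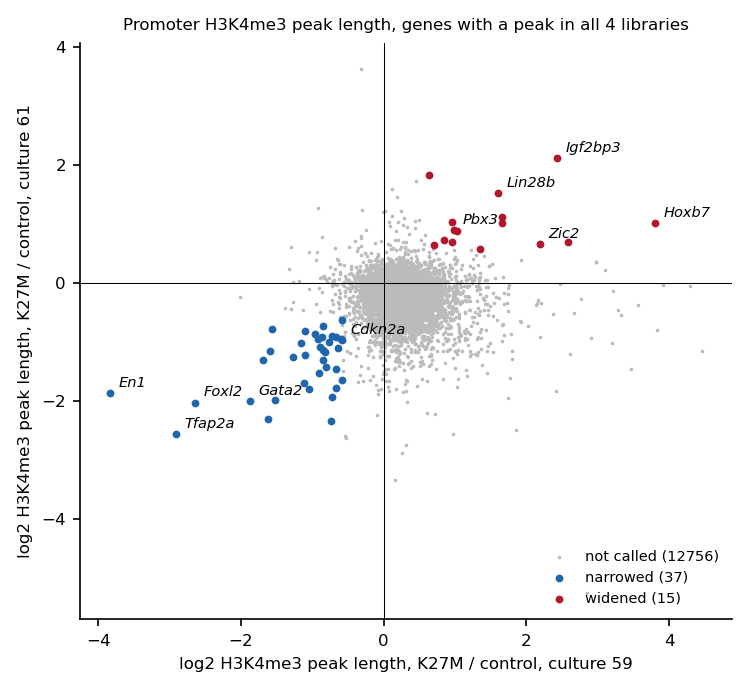
Log2 ratio of summed promoter H3K4me3 peak length, K27M over control, in culture 59 (x axis) and culture 61 (y axis) for the 12808 genes with a peak in all 4 brainstem libraries. Points are genes, coloured by call, and 15 widened and 37 narrowed genes lie outside the central cloud, with Igf2bp3 and Lin28b at the upper right and Tfap2a, En1, Foxl2 and Gata2 at the lower left.

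Sequences are shown for promoters and sites at which peaks differed between the genotypes. Promoter sequences are from RefSeq (GRCm38.p6) and site sequences from the GRCm38 (mm10) genome, plus strand, and all run 5′ to 3′, with CG dinucleotides in capitals because CpG content differs between the classes described here. The promoter sequences are the 250 bases upstream of the RefSeq start of the genes, and those of the gained distal sites are 300 bases around the summit in K27M 59. Zdbf2 (gained, chr1:63273019-63273268, plus strand) holds 26 CG dinucleotides in this window, and all of it lay under the peak in both K27M libraries and none in the controls. It is not typical of its class, with 30.15 CG dinucleotides per kb over its promoter windows. The class medians were 17 for gained and 35.0 for lost genes. Lmx1b (lost, chr2:33641099-33641348, minus strand) holds 19 and Dmrt2 (lost, chr19:25672161-25672410, plus strand) 14, and the K27M peak lists covered no base of either. Igf2bp3 (widened, chr6:49214955-49215204, minus strand) holds 21 and was covered in all 4 libraries. Lin28b (widened, chr10:45470202-45470451, minus strand) holds 6, and its window was covered whole in both K27M libraries and not at all in the controls. The control peaks of Lin28b lay at another annotated start. The median over 32851 RefSeq promoters was 6. The site near Fign (chr2:64074784-64075083) holds 9 and that near Ttll6 (chr11:96124344-96124643) 23, and both lay under peaks in the K27M libraries only.
Zdbf2: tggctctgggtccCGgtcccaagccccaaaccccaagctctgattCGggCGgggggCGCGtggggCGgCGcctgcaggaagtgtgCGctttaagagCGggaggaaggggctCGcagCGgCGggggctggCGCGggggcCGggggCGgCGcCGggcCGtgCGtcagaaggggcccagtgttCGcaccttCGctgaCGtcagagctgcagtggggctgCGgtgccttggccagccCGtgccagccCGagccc
Lmx1b: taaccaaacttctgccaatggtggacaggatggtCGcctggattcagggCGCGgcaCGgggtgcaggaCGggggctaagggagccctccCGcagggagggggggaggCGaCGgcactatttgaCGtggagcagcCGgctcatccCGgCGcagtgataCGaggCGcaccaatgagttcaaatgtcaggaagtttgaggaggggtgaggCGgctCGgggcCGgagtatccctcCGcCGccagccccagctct
Dmrt2: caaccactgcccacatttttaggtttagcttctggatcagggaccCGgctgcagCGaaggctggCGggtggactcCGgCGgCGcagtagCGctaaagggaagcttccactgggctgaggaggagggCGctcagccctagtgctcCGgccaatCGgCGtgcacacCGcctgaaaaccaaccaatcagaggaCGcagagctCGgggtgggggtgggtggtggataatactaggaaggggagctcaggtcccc
Igf2bp3: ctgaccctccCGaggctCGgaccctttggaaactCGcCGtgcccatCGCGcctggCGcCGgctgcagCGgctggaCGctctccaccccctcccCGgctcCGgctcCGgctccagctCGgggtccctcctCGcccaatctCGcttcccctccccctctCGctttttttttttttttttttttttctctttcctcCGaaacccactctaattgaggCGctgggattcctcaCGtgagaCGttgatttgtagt
Lin28b: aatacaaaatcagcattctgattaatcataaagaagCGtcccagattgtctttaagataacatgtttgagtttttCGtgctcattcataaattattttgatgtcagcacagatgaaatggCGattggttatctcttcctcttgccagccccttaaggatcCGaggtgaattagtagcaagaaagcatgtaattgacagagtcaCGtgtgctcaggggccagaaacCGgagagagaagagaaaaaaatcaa
Fign site: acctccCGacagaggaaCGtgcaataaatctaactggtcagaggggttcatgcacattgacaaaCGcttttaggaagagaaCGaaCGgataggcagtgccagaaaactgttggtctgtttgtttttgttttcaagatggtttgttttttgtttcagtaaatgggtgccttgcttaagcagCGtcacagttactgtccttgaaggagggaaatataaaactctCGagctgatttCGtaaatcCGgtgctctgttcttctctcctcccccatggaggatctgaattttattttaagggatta
Ttll6 site: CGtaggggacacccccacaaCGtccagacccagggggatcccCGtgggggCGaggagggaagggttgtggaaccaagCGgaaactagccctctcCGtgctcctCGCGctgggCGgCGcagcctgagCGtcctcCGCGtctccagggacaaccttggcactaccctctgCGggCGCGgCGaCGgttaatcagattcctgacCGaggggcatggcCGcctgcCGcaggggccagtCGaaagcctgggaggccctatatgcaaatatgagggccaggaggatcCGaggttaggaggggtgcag

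Of the 31 lost promoters, 15 belonged to genes of the transcription factor families counted below, most of them regulators of embryonic patterning. Emx2, a homeobox factor of the dorsal forebrain (chr19:59458372-59465357), carried a peak of 1947 bp in control 59 and 797 bp in control 61 and none in either K27M library, where the nearest peak began 77557 and 77898 bp from its promoter windows. The peak at Lmx1b, a LIM homeobox factor of hindbrain serotonergic neurons, measured 1704 and 345 bp in control 59 and 61 and was missing in both K27M cultures. At Nr2e1, the nuclear receptor TLX of neural stem cells, control peaks totalled 3152 and 2446 bp, with none at the promoter in K27M. Both controls were marked and both K27M libraries were unmarked at each of these promoters and, within the controls, the longer peak was in culture 59. These are bulk cultures, in which fewer marked cells and a weaker mark per cell cannot be told apart. Control 59 and 61 had peaks of 1778 and 672 bp at Dmrt2, a DM-domain factor of somite development, of 2648 and 775 bp at Fezf2, which specifies corticospinal neurons, and of 1005 and 750 bp at Hmx3, a homeobox factor of the inner ear. The protocadherin gene Pcdhb8 was the one member of the 8 leading lost genes that is no transcription factor, at 834 and 482 bp. Sp9, a zinc finger factor of forebrain interneurons, had 3146 and 2119 bp in the controls, but a K27M 59 peak lay in the same joined region, 431 bp outside the promoter window. It was the only lost gene with any K27M peak in its region, and 30 of 31 had none.

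In the list of other patterning homeobox genes, 6 of 44 members lost their promoter peak, namely Emx2, Lmx1b, Dlx5, Dlx6, Six2 and Six3, against the 0.149% of all genes. The paired Dlx5 and Dlx6 genes of the forebrain and branchial arches carried 818 and 1537 bp in control 59 and 465 and 551 bp in control 61. Six3, a homeobox factor of the rostral forebrain and eye, carried 1240 and 538 bp, and its relative Six2, of kidney progenitors, 1156 and 273 bp. In all, 30 and 21 of the 44 genes had a promoter peak in K27M 59 and 61, against 37 and 33 in control 59 and 61, lower in K27M in both pairs, whereas the number over all coding genes was higher in K27M 59 (13469 against 13304) and lower in K27M 61 (12944 against 13181). Peaks of lost genes were low. Their median fold enrichment over input was 5.64 in control 59 and 3.08 in control 61, where the median over all marked genes was 18.2 and 12. A single fibroblast marker, the collagen gene Col1a2, was also lost, with 744 and 289 bp in control 59 and 61. Of the 8 fibroblast and mural markers, 6 were unmarked in all 4 libraries, 1 was marked in all, and the summed peak length of the list was 1568 and 1157 bp in K27M and 2268 and 1693 bp in control cultures 59 and 61. The part of other cells in the Col1a2 peak was not tested.

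**Figure D2:**
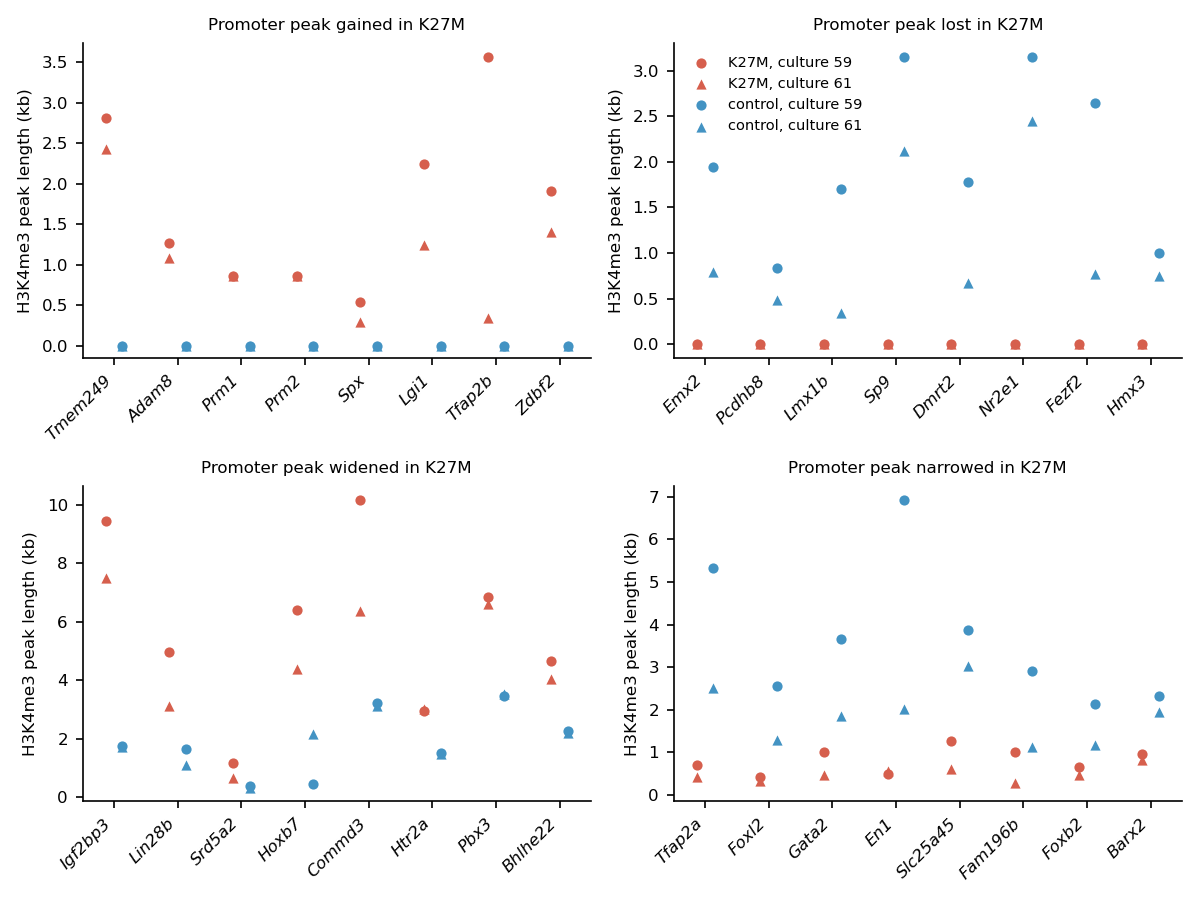
Summed length of promoter H3K4me3 peaks (kb, y axis) in each brainstem library for the 8 leading genes of each call, gained, lost, widened and narrowed. Circles are culture 59 and triangles culture 61, red K27M and blue control. Igf2bp3 reached 9467 and 7514 bp in K27M against 1761 and 1719 bp in the controls.

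Among the 37 narrowed promoters, 19 belonged to genes of the same families. At Tfap2a, the AP-2α factor of neural crest and surface ectoderm (chr13:40715302-40738376), peaks summed to 711 and 429 bp in K27M 59 and 61 and to 5325 and 2512 bp in control 59 and 61, 7.49-fold and 5.86-fold shorter in K27M. The K27M peaks lay downstream of the RefSeq start, at 2.54 to 3.25 kb in K27M 59 and 2.30 to 2.73 kb in K27M 61, while both controls also had a peak over the start itself. En1, the homeobox gene of the midbrain and hindbrain, had 486 and 556 bp in K27M against 6925 and 2025 bp in control, a 14.2-fold and 3.64-fold difference. Over its joined region En1 held 486 and 1529 bp against 6925 and 2767 bp, a smaller difference in culture 61, and was still called. Both K27M values were below both control values at each gene. Foxl2, a forkhead factor of the ovary, measured 409 and 320 bp against 2545 and 1300 bp, and Gata2, a zinc finger factor of haematopoietic and midbrain progenitors, 998 and 466 bp against 3654 and 1860 bp. Foxb2 had 662 and 472 bp against 2132 and 1161 bp. At the homeobox gene Barx2, the peaks of 965 and 817 bp in K27M and 2322 and 1935 bp in control differed by 2.41-fold and 2.37-fold, the most even pair of changes among these genes. Fam196b measured 1015 and 283 bp against 2916 and 1113 bp. Slc25a45, a mitochondrial carrier gene, measured 1267 and 618 bp against 3877 and 3035 bp, but over the whole joined region it held 3509 and 2396 bp against 3877 and 3035 bp and was no longer called.

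Cdkn2a, the locus of the p16 and p19 cell cycle inhibitors, was the one gene called, as narrowed, of 7 in the CDK inhibitor list, where 0.289% of all genes tested were narrowed. Its peaks measured 3490 and 2410 bp in K27M 59 and 61 and 5236 and 4686 bp in control 59 and 61, 1.5-fold and 1.94-fold shorter in K27M, with both K27M values below both controls. The signalling ligand gene Wnt6 had 1374 and 1080 bp against 2334 and 2147 bp, but only 1697 and 1080 bp against 2334 and 2147 bp over its joined region, below the 1.5-fold limit in culture 59. It was the one gene called of 48 in the Wnt list, beside the 0.289% of all genes tested that were narrowed, and so small a count says nothing about the list.

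A count over transcription factor families, defined by gene symbol after the calls had been seen, described the composition of each class. Homeobox, forkhead, T-box, SOX, GATA, DMRT, AP-2, Zic and basic helix-loop-helix genes made up 319 of the 20807 genes (1.53%). Among the 12808 genes with a peak in all 4 libraries, from which widened and narrowed genes came, they were 157 (1.23%). Family members were 15 of the 31 lost genes (48.4%), 19 of the 37 narrowed genes (51.4%), 5 of the 15 widened genes (33.3%) and 1 of the 31 gained genes (3.23%). Homeobox genes alone were lost in 11 cases and narrowed in 10, including Dmbx1, Hmx3, Lbx1, Vax1, Isl2, Onecut2, Pou4f1 and Pou4f2, and widened in 2, Hoxb7 and Pbx3. The median log2 length ratio of the 157 family members with a peak in all 4 libraries was 0.14 in culture 59 and −0.36 in culture 61, beside 0.19 and −0.17 for all genes, so the family members as a whole did not narrow in both pairs.

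The leading widened genes were Igf2bp3 and Lin28b, both RNA-binding proteins of the oncofetal programme. Igf2bp3 stabilises growth-related transcripts, and Lin28b blocks maturation of let-7 microRNAs. At Igf2bp3 (chr6:49085223-49214957), peaks totalled 9467 bp in K27M 59 and 7514 bp in K27M 61 against 1761 and 1719 bp in control 59 and 61, 5.38-fold and 4.37-fold longer. Over its joined region Igf2bp3 held 9467 and 8143 bp against 2407 and 2564 bp, a smaller difference in both pairs, and was still called. At Lin28b (chr10:45376620-45486395), peaks totalled 4962 and 3099 bp against 1637 and 1077 bp, 3.03-fold and 2.88-fold longer. These totals sum peaks at more than one annotated start. Part of the K27M totals was a separate peak over the RefSeq start printed above, from −0.67 to 1.63 kb in K27M 59 and −0.40 to 0.40 kb in K27M 61. No control peak lay within 15 kb of that start, and the control peaks were at another annotated start. The Lin28b ratios thus mix an added peak with a change in length. Totals in both K27M libraries exceeded both controls at Igf2bp3 and Lin28b. Of the 11 autosomal coding genes in the oncofetal growth list, 2 were widened, against 0.117% of all genes tested. Members that were not called included Hmga2, with 7849, 7064, 7713 and 6683 bp in K27M 59, K27M 61, control 59 and control 61, and Myc, with 7252, 6126, 6203 and 6337 bp. Lin28a and Igf2bp1 had no promoter peak in any library.

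Among developmental factors, Pbx3, a TALE homeobox cofactor of Hox proteins, had 6851 and 6604 bp in K27M 59 and 61 against 3457 and 3540 bp in control, 1.98-fold and 1.87-fold longer. Hoxb7 had 6392 and 4395 bp against 458 and 2156 bp, with a 13.96-fold difference in culture 59 and a 2.04-fold one in culture 61. It was not called with a window of 1000 bp on each side or an overlap of at least 200 bp. Of 39 Hox genes it was the one called, beside 0.117% widened over all genes tested, and their numbers with a promoter peak were 22 and 19 in K27M 59 and 61 and 16 and 20 in control 59 and 61, higher in K27M in one pair and lower in the other. Bhlhe22, a bHLH factor of neuronal differentiation and the one called gene of 14 proneural genes (0.117% of all genes tested were widened), had 4658 and 4052 bp against 2274 and 2186 bp. The neural progenitor gene Sox1 had 7748 and 7415 bp against 1296 and 4567 bp, but 2519 and 6382 bp in the controls over the joined region, where the control peaks were split. Zic2, of dorsal and midline neural development, had 8957 and 9651 bp against 1966 and 6074 bp. In each case both K27M values were above both controls, and for Hoxb7, Sox1 and Zic2 control 61 lay nearer to K27M than control 59 did.

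The other leading widened genes were of mixed function. The steroid 5α-reductase gene Srd5a2 had 1172 and 638 bp against 373 and 294 bp, and the serotonin receptor gene Htr2a 2932 and 2999 bp against 1514 and 1466 bp. Commd3, a neighbour of the Polycomb gene Bmi1, had 10169 and 6384 bp against 3226 and 3132 bp, but 10169, 7694, 8146 and 8037 bp in K27M 59, K27M 61, control 59 and control 61 over its joined region, where the K27M peak had merged with its neighbour. Measured over joined regions, Commd3, Htr2a, Sec61a2 and Sox1 were no longer called and 11 of 15 widened genes still were. Col9a3, a cartilage collagen gene and the one called gene of 29 in the collagen list (beside the same 0.117%), had 1500 and 544 bp against 921 and 347 bp, and it was not called after centring.

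**Figure D3:**
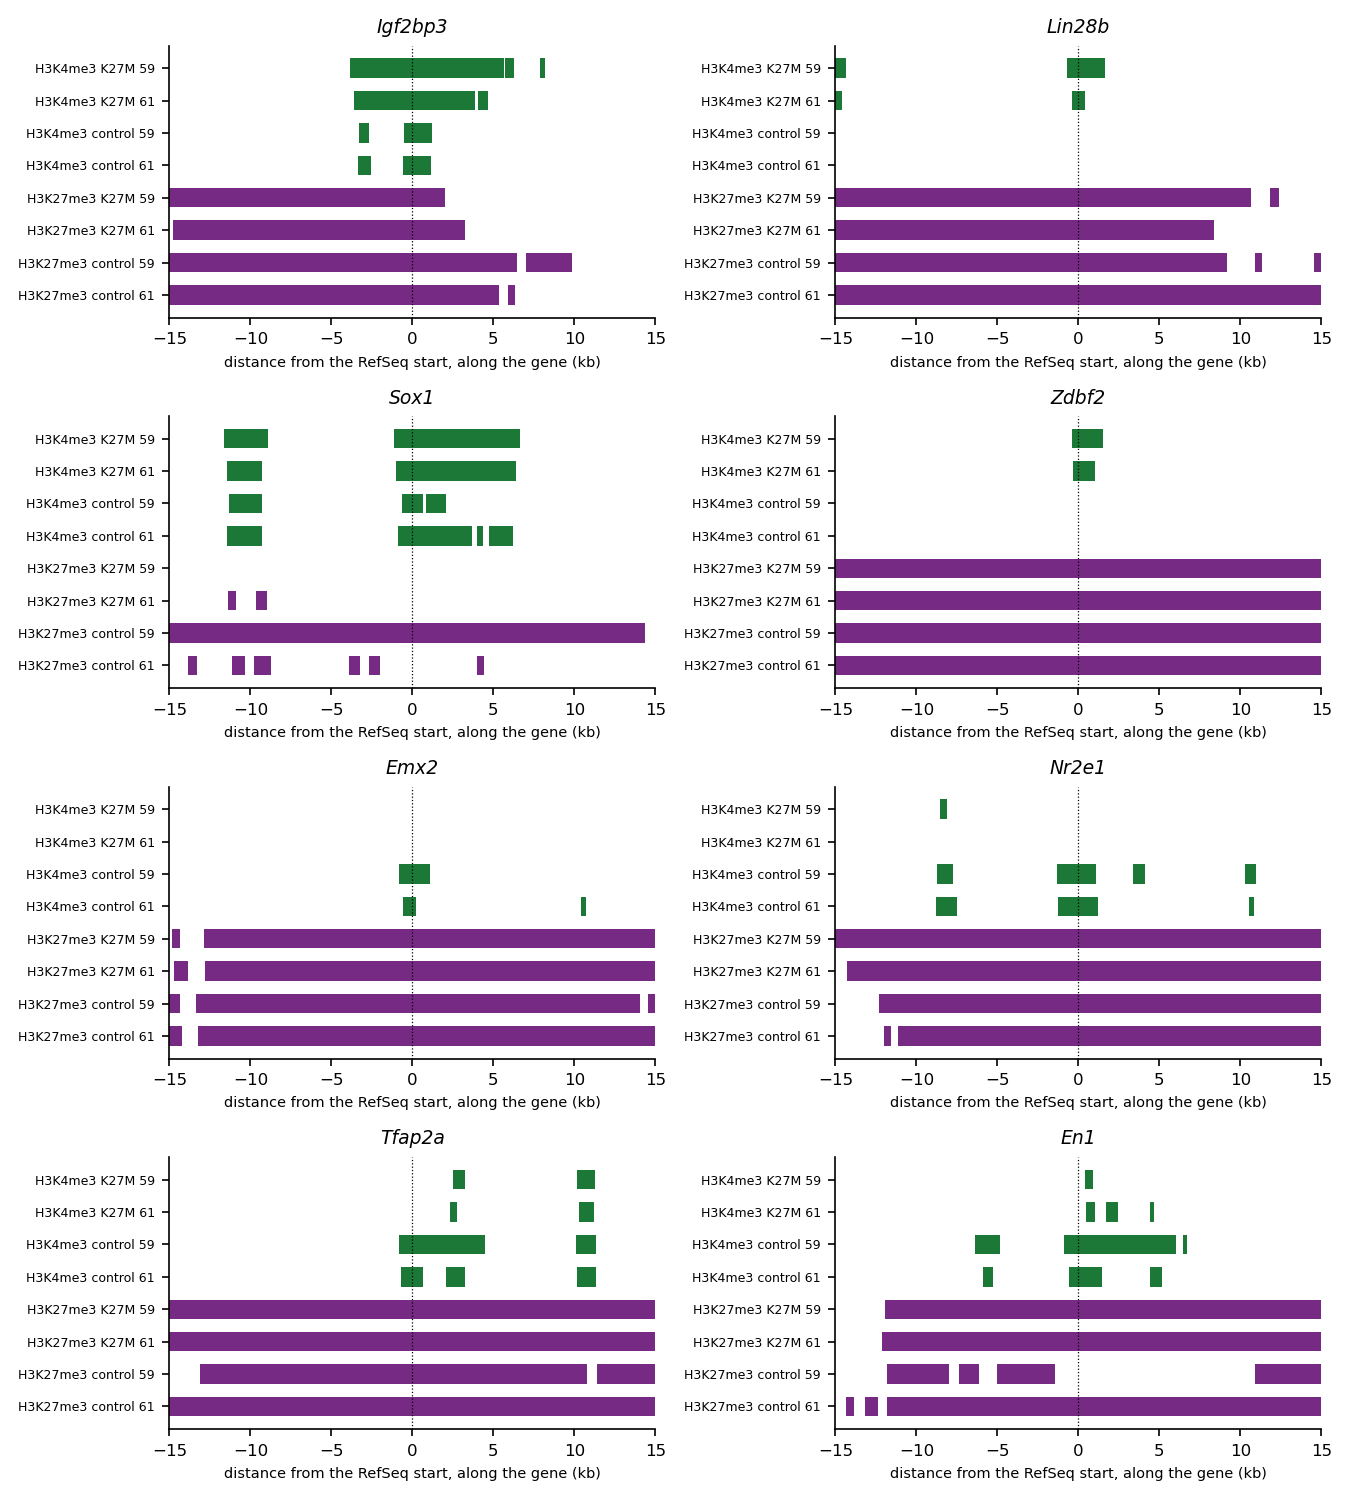
H3K4me3 (green) and H3K27me3 (purple) peak intervals within 15 kb of the RefSeq start at 8 genes, 1 row per brainstem library, with the x axis in kb along the direction of transcription. H3K4me3 spread further on both sides of the Igf2bp3 start in K27M. It covered the RefSeq start of Lin28b in K27M only, while control peaks at another annotated Lin28b start lay outside the map. The Emx2 and Nr2e1 starts were marked in the controls only, and the Tfap2a and En1 peaks were shorter in K27M.

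Gained promoters carried small peaks of varied genes. The 2 with the highest fold enrichment were set by the edge of the promoter window. At Tmem249, peaks of 2803 and 2425 bp touched the window in K27M, while control peaks in the same region, 2659 and 2580 bp long, ended 22 and 92 bp outside it. At Adam8, control peaks of 1011 and 1080 bp ended 46 and 20 bp outside. Riiad1 and Msh4 were alike in this respect, and the other 27 gained genes had no control peak in the region. The adjacent sperm protamine genes Prm1 and Prm2 shared one peak, of 856 bp in K27M 59 and 857 bp in K27M 61, with none in the controls. According to the methods, the Cre construct itself holds the Prm1 promoter, so this peak cannot be told apart from reads of the transgene and is no evidence on the endogenous genes. Leaving both out, 29 genes were gained (0.139%). At Zdbf2, an imprinted gene expressed from the paternal allele, K27M peaks measured 1912 and 1401 bp, and the nearest control peaks lay 92286 and 92738 bp from its windows. Lgi1, a secreted synaptic protein mutated in epilepsy, had 2243 and 1238 bp. Both K27M libraries were marked at these genes and neither control was. Spx, which encodes the neuropeptide spexin, had 541 and 293 bp, and the AP-2 gene Tfap2b had 3562 bp in K27M 59 and 339 bp in K27M 61, with control peaks 576 and 524 bp from its windows. The median fold enrichment of gained peaks was 4.56 in K27M 59 and 3.81 in K27M 61, beside 20.9 and 12.6 over all marked genes.

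None of the genes listed here as markers of OPCs (8), mature oligodendrocytes (12), astrocytes (10), neurons (12), microglia (10) or endothelium (8) was called, and neither was any of 43 BMP and TGF-β, 26 Notch, 29 integrin and laminin or 19 Polycomb genes. With 0.117% to 0.289% of all genes called in each class, the absence of calls in lists of this size is not a result about them. Pdgfra and Olig2 had long peaks in every library, and Sox10 in all but one. Pdgfra, the growth factor receptor used for panning, had 14319 and 11142 bp in K27M 59 and 61 and 15351 and 12590 bp in control 59 and 61, and Olig2, the lineage transcription factor, 12901 and 9587 bp against 10001 and 12704 bp. Sox10, which drives the myelin programme, had 8520 and 7208 bp against 10573 and 578 bp, so control 61 alone was short. The median log2 length ratio of the 8 OPC genes was 0.10 in culture 59 and −0.21 in culture 61. For the 6 marked astrocyte genes it was 1.03 and −0.29, of opposite sign in the 2 pairs.

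Fold enrichment at shared promoters, a height rather than a length, was also described within pairs only. The median log2 ratio of K27M over control was 0.19 in culture 59 and 0.08 in culture 61 over the 12808 genes. It was 0.26 and 0.20 for the 8 OPC genes, and −0.55 and −0.14 for the 21 marked genes of the other patterning homeobox list, a lower height in K27M in both pairs. For the 12 marked Hox genes it was 1.09 and −0.04.

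H3K27me3 in the same cultures was measured by other libraries, and the share of genes with a peak differed between the classes. The H3K27me3 peaks were called per library without the study's spike-in scaling, so their presence and length do not give the level of the mark. A promoter H3K27me3 peak was present at 10.4% and 11.4% of all coding genes in K27M 59 and 61 and at 29.4% and 17.7% in control 59 and 61. Over the genes with an H3K4me3 peak in all 4 libraries, these shares were 12.3%, 13.7%, 29.8% and 19.1%. Among lost genes the shares were 83.9%, 83.9%, 90.3% and 87.1%, and 26 of 31 genes had such a peak in all 4 libraries. Among narrowed genes they were 78.4%, 81.1%, 81.1% and 81.1%. Lost and narrowed promoters were mostly H3K27me3-marked in both genotypes. The share over genes with weak H3K4me3 peaks, or with peaks in only some libraries, was not computed, so lost genes have no matched background here. Domains at Emx2 measured 29321 and 28092 bp in K27M and 27443 and 29818 bp in control, and those at Lmx1b 24494 and 22938 bp against 21564 and 22193 bp. En1 differed in one library, with 36814 and 36974 bp in K27M, 3585 bp in control 59 and 36682 bp in control 61, and Cdkn2a had 30079 and 29597 bp in K27M, 0 bp in control 59 and 23470 bp in control 61.

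Gained genes carried promoter H3K27me3 in 25.8% and 29.0% of cases in K27M 59 and 61 and in 51.6% and 35.5% in control 59 and 61. For widened genes the shares were 46.7% and 46.7% against 80.0% and 60.0%, lower in K27M in both pairs, as they were over all genes. At Sox1, H3K27me3 peaks touching the promoter measured 31238 and 664 bp in control 59 and 61 and were absent from both K27M libraries. At Pbx3 they measured 3395 and 3791 bp in the controls, with none in K27M. Igf2bp3 and Lin28b had H3K27me3 peaks in all 4 libraries, with 17048 and 18052 bp in K27M against 21546 and 20553 bp in control at Igf2bp3, and 33015 and 30153 bp against 32146 and 53994 bp at Lin28b. The promoter windows of lost and narrowed genes were CpG-rich, with medians of 35.0 and 42.0 CG dinucleotides per kb, beside 28.7 for widened, 17 for gained and 18.4 for all genes. The median was 23.4 over the genes with a peak in all 4 libraries, the set from which widened and narrowed genes came.

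**Figure D4:**
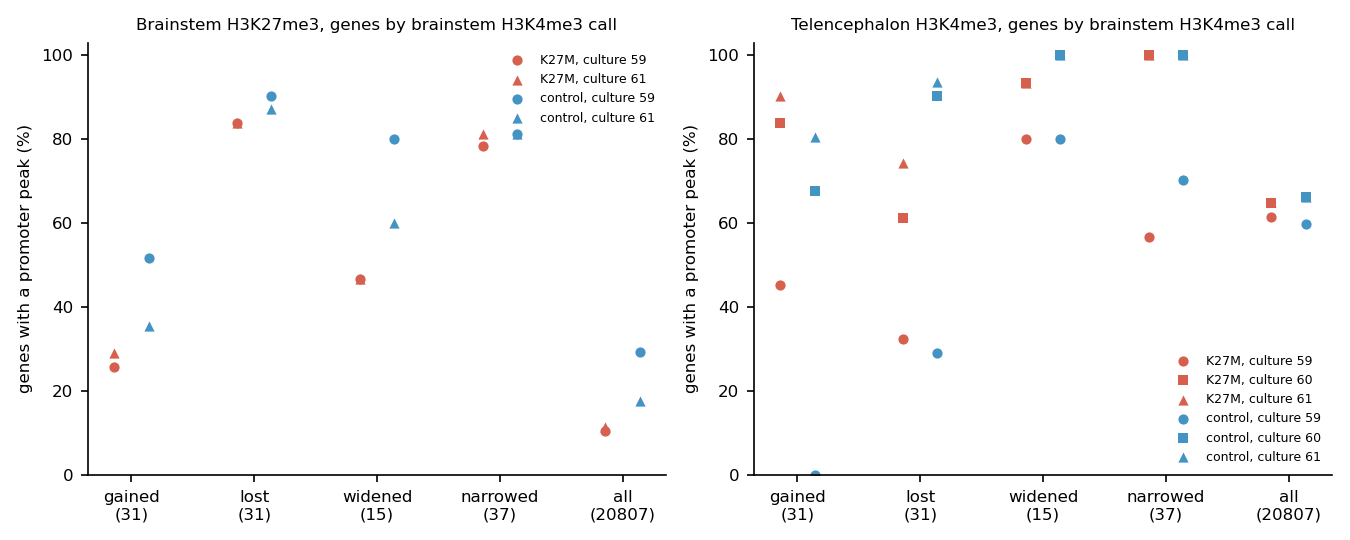
Share of genes (%) with a promoter peak of H3K27me3 in brainstem libraries (left) and of H3K4me3 in telencephalon libraries (right), by brainstem H3K4me3 call, with the number of genes below each class. Points are libraries, red K27M and blue control, with the marker giving the culture. Lost and narrowed genes had H3K27me3 in 78.4% to 90.3% of cases in every library, and all genes in 10.4% to 29.4%.

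The telencephalon pairs gave the same measure in libraries that the calls did not use. Gained genes had a promoter peak in 45.2%, 83.9% and 90.3% of cases in K27M 59, 60 and 61 and in 0.0%, 67.7% and 80.6% in control. The difference was 45.2, 16.1 and 9.7 percentage points, a mean of 23.7 ± 18.9 (SD, n = 3 pairs), where all genes differed by 1.7, −1.4 and −1.3. An exact two-sided sign-flip permutation test gave p = 0.25, the smallest that 3 pairs allow, and without culture 59 the mean was 12.9. With Prm1 and Prm2 left out the differences were 41.4, 10.3 and 6.9 percentage points (mean 19.5 ± 19). For lost genes the shares were 32.3%, 61.3% and 74.2% in K27M and 29.0%, 90.3% and 93.5% in control, differences of 3.2, −29.0 and −19.4 percentage points (mean −15.1 ± 16.6, exact sign-flip permutation p = 0.5). The mean was −24.2 without culture 59, −8.1 without culture 60 and −12.9 without culture 61. K27M thus had the smaller share in cultures 60 and 61. Telencephalon control 59 listed a promoter peak at 12450 genes, against 13746 and 13803 in control 60 and 61, and the part of this library in the values of culture 59 was not tested.

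Lengths did not follow the shares in every class. For gained genes with a telencephalon peak in both libraries of a pair, the median log2 length ratio was −0.48 in culture 60 and −0.14 in culture 61, with no such gene in culture 59. Of the 31 gained genes, 11 (35.5%) were shorter in K27M in both culture 60 and culture 61, and 9 (29.0%) were longer. Over all coding genes, 17.7% were shorter and 32.3% longer in both cultures. For widened genes the median log2 length ratio was 0.61, 0.48 and 0.60 in telencephalon cultures 59, 60 and 61, beside 0.15, 0.08 and 0.10 over all genes (mean 0.56 ± 0.07, n = 3 pairs, exact sign-flip permutation p = 0.25). Igf2bp3 measured 7797, 8245 and 9287 bp in K27M and 1421, 3807 and 2644 bp in control, longer in K27M in all 3 pairs, and 9 of 15 widened genes were longer in all 3 (60.0%, against 41.4% of genes with a peak in all brainstem libraries). Hoxb7 differed, with no telencephalon peak in K27M and 0, 1192 and 912 bp in control. For narrowed genes the ratio was 0.04, −0.78 and −0.99 (mean −0.58 ± 0.55, exact sign-flip permutation p = 0.5). Of these genes, 31 of 37 were shorter in K27M in both culture 60 and culture 61 (83.8%, against 23.7% of genes with a peak in all brainstem libraries), and 14 of 37 in all 3 pairs (37.8%, against 2.22%). Tfap2a had 353, 1042 and 1643 bp in K27M and 1048, 4980 and 7861 bp in control. Emx2, which was lost in the brainstem, kept peaks of 5062 to 7933 bp in all 6 telencephalon libraries.

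**Figure D5:**
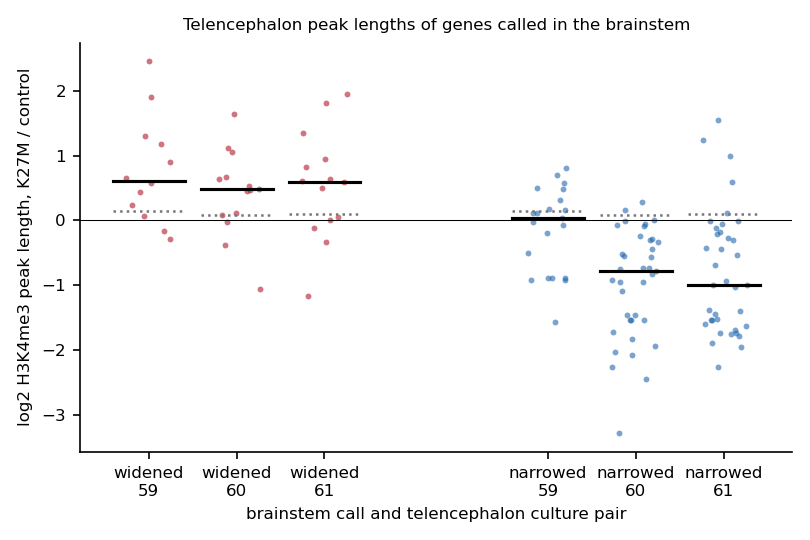
Log2 ratio of promoter H3K4me3 peak length, K27M over control, in telencephalon cultures 59, 60 and 61 (x axis) for genes called widened or narrowed in the brainstem. Points are genes with a peak in both libraries of the pair, black bars their medians and dotted grey bars the medians over all genes, with narrowed genes at medians of 0.04, −0.78 and −0.99.

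Distal sites were peaks merged over the 4 libraries that touched no promoter window. Of 15698 such sites, 261 were gained (1.66%) and 200 were lost (1.27%), and of the 2905 with a peak in all 4 libraries 34 were widened (1.17%) and 24 narrowed (0.826%). More sites were seen only in the 2 libraries with more reads, K27M 59 and control 61 (1330), or in K27M 59 alone (4616). The gained site with the highest enrichment lay in an intron of Fign, a microtubule-severing enzyme gene, 22701 bp downstream of its start (chr2:64074341-64076232). It held peaks of 1687 and 1740 bp in K27M 59 and 61 and none in the controls, and telencephalon peaks of 1728, 1744 and 1617 bp in the 3 K27M cultures and none in the 3 controls. The next lay between genes near Ttll6, at the edge of the Hoxb cluster (chr11:96124081-96124942), with 862 and 653 bp, and H3K27me3 covered its whole length in all 4 libraries. The others were an intronic site of Foxn3 with 1487 and 861 bp, an intergenic site 341154 bp upstream of Mki67 with 2484 and 758 bp, and an intronic site of Arhgap26 with 987 and 568 bp.

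The leading lost distal sites included sites near the homeobox genes En1, Otx1 and Lbx1. A site 5535 bp upstream of En1 (chr1:120596097-120597669) had 1573 and 631 bp in control 59 and 61 and no peak in K27M, beside the narrowed En1 promoter. Sites near Otx1, a homeobox gene of the forebrain and midbrain, and Lbx1, whose own promoter was lost, had 806 and 924 bp and 1136 and 708 bp in the controls. Sites 78621 bp upstream of Tbca and 212901 bp downstream of Parp8 had 1200 and 775 bp and 837 and 347 bp. All 5 overlapped H3K27me3 in all 4 libraries. For 7 of the 200 lost sites the nearest coding start belonged to a lost or narrowed gene, among them Dmrta2, Gfi1, Nr2e1 and Pou4f1. A gene called in the same direction was nearest for 1 of 261 gained, 2 of 34 widened and 1 of 24 narrowed sites. The share over all distal sites was not computed, so these counts are not a result about the classes. Over the whole class, H3K27me3 overlapped 10.0% and 10.5% of lost sites in K27M 59 and 61 and 12% and 11.0% in control, against 3.16%, 3.39%, 9.1% and 5.15% of all distal sites. For gained sites the shares were 1.92%, 3.07%, 8.05% and 4.21%.

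Widened distal sites included one in an intron of Pbx3, 6188 bp downstream of a start of that widened gene (chr2:34362789-34366527), with 3739 and 1465 bp in K27M against 795 and 501 bp in control. An intronic site of Nfib, which encodes a nuclear factor of glial development, had 1258 and 1212 bp against 418 and 455 bp, and one in Gnaq, with Gna14 as the nearest start, 906 and 915 bp against 322 and 279 bp. The leading narrowed sites lay in introns of Polr3b (288 and 440 bp against 891 and 1715 bp) and Rptor (593 and 308 bp against 1433 and 716 bp) and upstream of Thumpd3 (428 and 294 bp against 1042 and 845 bp). Gained sites had a median of 15.7 CG dinucleotides per kb, lost sites 10.8 and all distal sites 13.9, with interquartile ranges of 10.4 to 22, 6.57 to 20.2 and 8.12 to 21.6 that overlapped. Between genes lay 38.7% of gained and 25.5% of lost sites, beside 33.3% of all. In the telencephalon, the share of gained sites with a peak was 9.2, 39.1 and 26.8 percentage points higher in K27M in cultures 59, 60 and 61 (mean 25 ± 15, n = 3 pairs, exact sign-flip permutation p = 0.25), beside 1.4, 19.2 and 10.5 for all distal sites. For lost sites the difference was −10.5, 20.5 and 16.5 percentage points (mean 8.8 ± 16.9, exact sign-flip permutation p = 0.5).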

How the data were processed

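H3K4me3 peak lists of 4 brainstem cultures were analysed, with 4 brainstem H3K27me3 and 6 telencephalon H3K4me3 lists as other readouts. Inputs and telencephalon H3K27me3 were not used here. Per the submitters' processing notes and the methods, alignment by the authors used BWA 0.7.17-r1188 and mm10. MACS2 2.2.7.1 then gave one peak list per library, with the matched input as background and blacklisted regions left out, so replicates were not pooled. The deposited columns used were the fold enrichment over input (a ratio), the −log10 p-value, the −log10 q-value and the summit. These lists give no read counts, so depth behind a single peak is unknown and no interval was computed. The study's list of library sizes was read only for which library of a pair had more reads.

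Peaks on the 19 autosomes were matched to GENCODE M21 promoters on GRCm38 (20807 protein-coding genes, at least 1 bp overlap) in Python 3.11.15 with numpy 2.4.6, pandas 2.3.3 and scipy 1.17.1. No peak passed a chromosome end. Length was the sum over peaks touching a promoter window, also measured over regions joined across libraries, an alternative chosen after seeing the data. Pairs were tested with exact sign-flip permutation tests. The call functions were tested on simulated data. Samples were paired by culture number, which the methods describe as matched cultures. Deviations from the group means correlated between same-numbered libraries with r = 0.01 for lengths and 0.08 for peak presence, across genes.

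The members, gene lists and tests were chosen with earlier results of these data known. Named genes were the 8 gained and 8 lost with the highest mean fold enrichment and the 8 widened and 8 narrowed with the largest change in the lesser pair, without predicted genes, the leading 5 gained, 5 lost, 3 widened and 3 narrowed distal sites, and called list members, of which some are not reported here. Other members of the lists, members of transcription factor families, Sox1, Zic2 and Tcf24 and Dmtn at the threshold were named after their values were seen, as were the sequences of Igf2bp3 and Lin28b. Sequences of gained and lost promoters were limited to leading genes whose RefSeq window lay under a peak of both marked libraries (at least 50 bases each), held at most 30 bases of coding-transcript exons and had no peak of the other genotype in the region, which left 1 gained gene. Alternatives were stricter peaks, equal peak numbers, other windows, overlaps and gene sets, consensus peaks, a 2-fold limit, centring, no pairing, each culture left out and, chosen after seeing the data, Prm1 and Prm2 left out.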

Additional observations from a re-analysis of the deposited data

Results flagged for a closer look

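At 3 genes called in the brainstem, both brainstem pairs went one way and all 3 telencephalon pairs the other, and this difference was not tested. Longer in K27M in all 3 telencephalon pairs were 2 of 37 narrowed (5.41%) and 1 of 31 lost genes (3.23%). The share was 25.8% over all coding genes and 41.4% over genes with a peak in all brainstem libraries. The count is below these shares and is not a result about the classes. The Six3 promoter peak, lost in brainstem K27M, was shorter in K27M than in control by 1240 bp in brainstem culture 59 (a difference of −1240 bp) and by 538 bp in culture 61, and longer by 7351, 7238 and 454 bp in telencephalon cultures 59, 60 and 61. For Bcr, a GTPase-activating protein gene narrowed in the brainstem, the differences of K27M minus control were −1463 and −2048 bp in the brainstem and 1770, 498 and 351 bp in the telencephalon. For Dmrta2, a DM-domain factor, they were −530 and −435 bp in the brainstem and 455, 8 and 3785 bp in the telencephalon, where the value of culture 60 was close to 0. Over the joined region Bcr was not called in the brainstem, with 4490 and 2221 bp in K27M and 4278 and 4269 bp in control. Outlying samples were not tested for, since no brainstem group held more than 2 libraries.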

How the results depend on the processing

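Of 118 alternatives for summary values, 85 stayed, 31 moved further and 2 reversed. Staying meant within 1.5 times the count, within 1 SD of an H3K27me3 share difference, or the same sign of covered length and telencephalon share differences. With 2 pairs, leaving out 1 culture cannot move an H3K27me3 share difference beyond 1 SD. The cause of the moves was not tested beyond what each setting itself changes. A count can stay while its genes change. Peaks of at least 3-fold enrichment gave 30 lost and 32 gained promoters, of which 18 and 24 were main calls. Equal peak numbers gave 42 and 45, of which 18 and 22 were. A −log10 q of at least 3 gave 33 and 26, of which 29 and 25 were. With 1 culture left out, a call rests on a single pair, and promoter counts ranged from 90 to 290 gained, 125 to 327 lost, 69 to 1071 widened and 146 to 926 narrowed, and distal counts from 817 to 6618, 2140 to 3972, 136 to 1891 and 289 to 1192. The log2 covered length was −0.29 without culture 59, a reversal, and 0.33 without culture 61. Counting all autosomal genes, not only coding ones, gave 75 gained, 55 lost and 27 widened promoters. Consensus peaks gave 120 gained and 254 lost promoters, of which 22 and 20 were among the 31 called in each class, and 657 gained and 1221 lost distal sites. A 2-fold limit left 5 widened and 13 narrowed promoters and 7 and 6 distal sites. Without the pairing (no replicate block, each K27M length against both controls), 12 promoters were widened and 19 narrowed, distal counts were 17 and 7, and the covered length had an exact permutation p = 1.0; the telencephalon share differences had exact permutation p = 0.5 (gained) and p = 0.6 (lost). With peaks of at least 3-fold enrichment, the mean difference in H3K27me3 share moved from −4.84 to −1.61 percentage points at lost promoters and reversed from −1.35 to 1.35 at narrowed ones. Outside the settings that leave out a culture, which keep every call by construction, the calls of 32 named genes held in 231 of 256 checks, and 19 genes held in all of them. Tmem249, Adam8, Sp9, Slc25a45, Commd3 and Htr2a were not called over joined regions, an alternative chosen after seeing the data, Hoxb7 was not called with the narrower window or the 200 bp overlap, Zdbf2 was not called with 3-fold peaks, and Foxl2 was not called with 3-fold peaks or equal peak numbers. Read depth behind single peaks is unknown, and 2 pairs cannot give a p below 0.5.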
